A study of Mus musculus with 6 samples.

Results

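The genes of the constitutive proteasome were followed in mouse immature dendritic cells with and without fluid shear stress (FSS). Members were all rows of the expression table with values whose symbol is Psma, Psmb, Psmc or Psmd followed by a number, without the immunoproteasome genes Psmb8, Psmb9 and Psmb10. This gave 36 of the 18071 genes with values. The 20S core had 16 genes, 8 alpha (Psma) and 8 beta (Psmb), and the 19S cap had 20 genes, 6 ATPases (Psmc) and 14 non-ATPase subunits (Psmd). Cells of both groups were grown from the bone marrow of male C57BL/6 mice, 7 weeks old, for 7 days with GM-CSF at 20 ng/ml and IL-4 at 10 ng/ml, and were selected on CD11c. The FSS group then received 10 dyn/cm2 for 3 h in a cone-plate device, and the control group was cultured statically. Each group had 3 RNA-seq libraries, numbered 1 to 3 in both, and the comparison asks what loading does to the messenger RNAs. The labels do not say whether libraries came from separate cultures or animals, so the p-values cover the spread among these libraries alone, and that spread may be technical.

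The proteasome degrades proteins tagged with ubiquitin. Alpha and beta rings form the core, whose chamber holds the catalytic beta subunits, while the cap binds the tag, removes it, and unfolds the substrate with a ring of ATPases. In dendritic cells the peptides it makes are a main source for presentation on MHC class I, and inflammatory signals exchange its catalytic subunits for those of the immunoproteasome. Cells short of proteasome activity raise the subunit genes together through the transcription factor NFE2L1.

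Values were taken as FPKM (fragments scaled by transcript length and by the mapped fragments of the library), a unit inferred from the numbers, and sequencing depth is unknown. Summed FPKM ran from 413898 to 470596 per library. Both libraries numbered 3 stood apart on the first principal component (48.5% of the variance). Of 8 dendritic cell markers, 6 were at 1 FPKM or more in every library, while Cd209a and Flt3 were under 1 in all. The summed dendritic markers were 9109 to 10430 FPKM in static and 7223 to 9211 in FSS libraries. Summed macrophage markers were 83.7 to 118 and 103 to 171 FPKM with Cd163 under 1, and neutrophil markers were 280.1 to 501 and 246 to 413. All listed T cell, NK cell and erythroid markers were under 1 FPKM in every library. Of the B cell and mast cell markers with values, only Cd79a (static library 2) and Cpa3 (both libraries numbered 2) exceeded 1 FPKM. The cycling marker Mki67 was at 19.4, 31.0 and 14.7 FPKM in static and at 48.8, 49.3 and 15.4 in FSS libraries. Mki67 was thus lowest in number 3 of both groups. Top2a, the other cycling marker, was at 5.81, 14.6 and 12.7 and at 6.41, 15.4 and 10.9 FPKM, lowest in number 1. The part of these markers in the results below was not tested, and in bulk RNA fewer cells of a type and less RNA per cell cannot be told apart.

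Of the 36 genes, 34 were at or above 1 FPKM in 3 or more libraries and were tested, 14 of the core and all 20 of the cap. The other two are tissue-restricted subunits. Psma8, the alpha subunit of the testis, was at 0.59, 0.73 and 0.55 FPKM in static and at 0.31, 0.36 and 0.42 in FSS libraries, and Psmb11, the beta subunit of the thymic cortex, was at 0.01 FPKM or listed at 0. The median tested core gene had 94.4 ± 16.7 FPKM in static and 83.0 ± 21.8 in FSS libraries (mean ± SD, n = 3 per group), and the median cap gene 37.1 ± 4.93 and 32.3 ± 2.53. FPKM are per length, so levels of different genes can be set side by side, and by mean 12 of the 14 core genes lay above every cap gene but Psmd8. Core genes spanned 52.3 (Psma5) to 136 FPKM (Psma6) by mean over all libraries. Cap genes spanned 4.48 FPKM (Psmd9) to 162 FPKM (Psmd8). The cap-assembly chaperones Psmd9, Psmd10 and Psmd5, which are not part of the finished cap, were the only tested members with a mean under 20 FPKM, at 4.48, 13.6 and 17.1. The summed core was 1.51 ± 0.016 times the summed cap in static and 1.51 ± 0.061 times in FSS libraries. The members together made up 0.443%, 0.485% and 0.541% of summed FPKM in static libraries 1, 2 and 3, and 0.391%, 0.445% and 0.515% in FSS libraries 1, 2 and 3. The FSS share was below the static one of the same number each time, but the groups overlapped, and the step from number 1 to number 3 within a group was larger than that between groups.

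**Figure D1:**
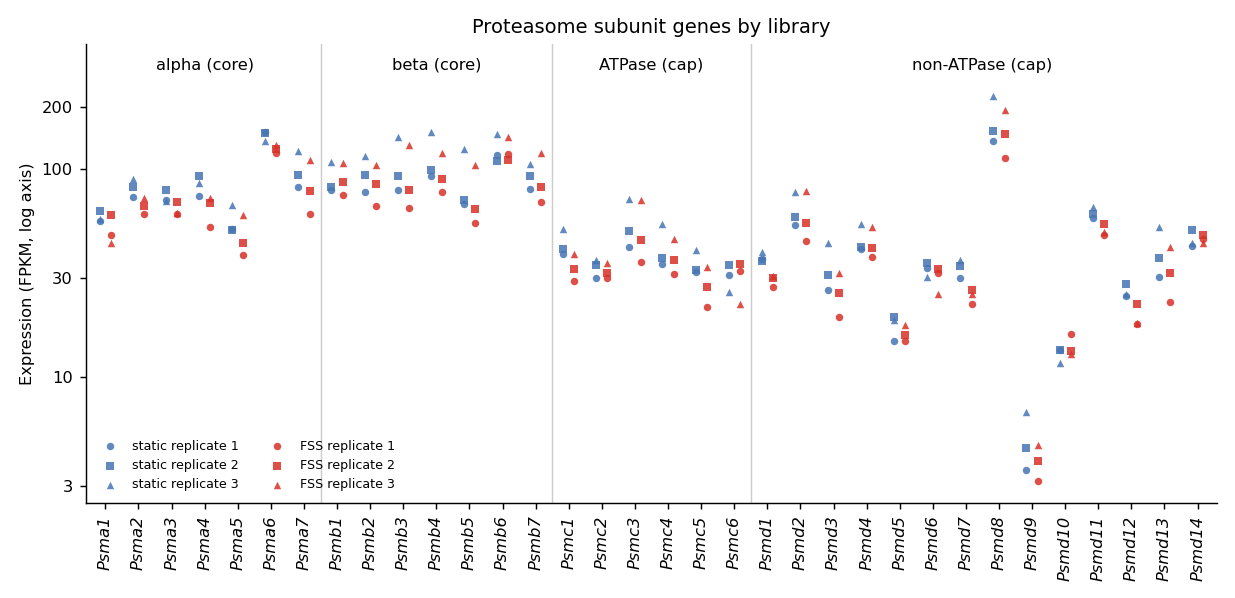
FPKM (log axis) of each tested constitutive proteasome gene in the 3 static and 3 FSS libraries, 1 point per library, ordered by role. Core genes lie mostly above cap genes, and within most genes the points of both groups overlap.

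Without pairing the libraries, no constitutive proteasome gene passed the test between FSS and static. By limma on log2(FPKM + 1), with Benjamini-Hochberg adjustment over 10899 genes and a threshold of 0.05, 0 members were higher and 0 lower, where 0.853% of all genes tested were higher and 0.862% lower. At an unadjusted p under 0.05 there were 3 members, the cap genes Psmd7, Psmd12 and Psmd1, and 1969 of all genes. The smallest adjusted p of a member was 0.205 (limma, Psmd7). The log2 difference of FSS minus static was below 0 for 32 of 34 members and for 7168 of the 10899 genes. Its median was -0.21 over the members, -0.22 over the core, -0.16 over the cap and -0.12 over all genes. Members ran from -0.43 (Psmd7) to 0.12 (Psmd10).

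With the replicate number as a block, 9 members fell and 0 rose. That is 26.5% of the members, near the 25.1% of all genes called lower by the same fit (7.73% were called higher). The core gave 2 of the 9, Psma4 and Psma2, and the cap gave 7, Psmd7, Psmd12, Psmc1, Psmd3, Psmd1, Psmc5 and Psmd13. The count moved with the scaling between libraries. Median-ratio scaling divides each library by the median ratio of its genes to their log-scale means over the libraries, for genes above 1 FPKM in all. After it the blocked fit called 1 member lower, Psmd7, and 1 higher, Psmd10, where 16.3% of all genes were called lower and 19.6% higher. The core median was then -0.05 and the cap median 0.01, beside 0.03 for all genes. After scaling to equal totals 7 members were called lower (21.2% of all genes), without Psma2 and Psmd13. Without both libraries numbered 3, a fit chosen after seeing the data, the block called 13 members lower, 6 of the core and 7 of the cap (38.2%, beside 24.5% of all genes) and 0 higher (14.3% of all genes).

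Alpha subunits build the outer rings of the core and the gate to its chamber. Psma4 (gene ID 26441) was at 74.7, 93.2 and 85.9 FPKM in static libraries 1, 2 and 3 and at 52.7, 68.6 and 72.6 in FSS libraries 1, 2 and 3. All FSS libraries lay below all static ones. The means were 84.6 ± 9.33 and 64.7 ± 10.5 FPKM (n = 3 per group), a log2 difference of -0.39 with a limma adjusted p of 0.327 without and 0.0153 with the block. Psma2 (gene ID 19166) was at 74.0, 82.3 and 90 FPKM in static and at 60.8, 67.0 and 72.6 in FSS libraries. Its groups did not overlap either, and its differences in pairs 1, 2 and 3 were nearly equal, at -0.28, -0.29 and -0.31 (blocked limma adjusted p 0.0289). That call was lost when the blocked fit used equal totals (-0.23, limma adjusted p 0.0572) or median-ratio scaling (-0.13, limma adjusted p 0.297). All 7 tested alpha genes were lower with FSS in every pair, as were 47.3% of all genes, and the alpha median log2 difference was -0.25.

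Beta subunits line the chamber, and Psmb5, Psmb6 and Psmb7 encode its chymotrypsin-like, caspase-like and trypsin-like sites. Psmb5 (gene ID 19173) was at 67.8, 71.3 and 124.9 FPKM in static and at 55.2, 64.3 and 104.6 in FSS libraries 1, 2 and 3. The libraries numbered 3 were high in both groups, and the groups overlapped. Psmb6 (gene ID 19175) was at 117.7, 109.9 and 148 FPKM in static and at 118.5, 111.4 and 143.4 in FSS libraries, means of 125.2 ± 20.1 and 124.5 ± 16.8. Each FSS value lay within a few percent of the static one of its number. Psmb7 (gene ID 19177) was at 80.7, 93.1 and 105.9 FPKM in static and at 69.5, 82.0 and 119.7 in FSS libraries, lower in pairs 1 and 2 and higher in pair 3. Psmb1, a structural beta subunit with the smallest difference in the core, had 79.2, 82.2 and 108.4 FPKM in static and 75.5, 86.9 and 107.4 in FSS libraries. None of these 4 genes passed the test with or without the block. The median log2 difference of the 7 tested beta genes was -0.17, and 4 of them were lower in every pair (57.1%, beside 47.3% of all genes). The sign for Psmb1, Psmb6 and Psmb7 turned under median-ratio scaling, to 0.17, 0.16 and 0.09.

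The 6 ATPases form the ring that unfolds substrates and feeds them into the core. Psmc1 (gene ID 19179) was at 39.2, 41.6 and 51.4 FPKM in static and at 29.1, 33.1 and 39.3 in FSS libraries. FSS library 3 lay at the level of static library 1, so the groups overlapped, while each FSS library was below the static one of its number by a similar amount. The log2 difference was -0.37, with a limma adjusted p of 0.354 without and 0.0162 with the block. Psmc5 (gene ID 19184) was at 32.2, 33.0 and 40.8 FPKM in static and at 21.7, 27.1 and 33.8 in FSS libraries, and its blocked limma adjusted p was 0.0280. The other ATPase genes did not pass either fit. The median log2 difference over the ATPases was -0.13.

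Non-ATPase subunits hold the scaffold, the ubiquitin receptors and the deubiquitinase. Psmd7 (gene ID 17463), the partner subunit of the deubiquitinase, was at 30.1, 34.5 and 36.7 FPKM in static and at 22.7, 26.3 and 25.1 in FSS libraries. The groups were clearly apart, at 33.7 ± 3.33 and 24.7 ± 1.85 FPKM (n = 3 per group). The log2 difference of -0.43 had a limma adjusted p of 0.205 without the block, 0.0108 with it and 0.0297 when median-ratio scaling was added to it. Psmd12 (gene ID 66997), a scaffold subunit of the lid, was at 24.7, 28.2 and 25.2 FPKM in static and at 18.0, 22.6 and 18.3 in FSS libraries. Psmd1 (gene ID 70247), the large scaffold of the base, was at 36.9, 36.4 and 40.3 FPKM in static and at 27.2, 30.1 and 30.6 in FSS libraries. For both, every FSS library lay below every static one. Their log2 differences were -0.39 and -0.36 with blocked limma adjusted p-values of 0.0156 and 0.0208. Psmd3 (gene ID 22123), also of the lid, was at 26.4, 31.0 and 44.4 FPKM in static and at 19.5, 25.5 and 31.7 in FSS libraries, with overlapping groups and a blocked limma adjusted p of 0.0173. Psmd13, another lid subunit, had a log2 difference of -0.30 and a blocked limma adjusted p of 0.0355.

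Of the members that read or remove ubiquitin, Psmd4 and Psmd14 did not pass the test with or without the block. Among cap-bound deubiquitinases of the related list below, Usp14 fell with the block (-0.34, limma adjusted p 0.0244) and Uchl5 did not pass (-0.07, limma adjusted p 0.584). With median-ratio scaling added to the block, Usp14 did not pass either (-0.18, limma adjusted p 0.130). Psmd4 (gene ID 19185), a ubiquitin receptor, was at 41.5, 42.4 and 54.6 FPKM in static and at 38.0, 41.7 and 52.7 in FSS libraries. Psmd14 (gene ID 59029), the deubiquitinase, was at 42.8, 50.9 and 44.2 FPKM in static and at 46.2, 48.5 and 44.3 in FSS libraries. The groups overlapped for both genes, and Psmd4 turned to 0.10 under median-ratio scaling. Psmd10 (gene ID 53380), the chaperone known as gankyrin, had the largest value above 0, with 13.6, 13.5 and 11.7 FPKM in static and 16.2, 13.5 and 12.9 in FSS libraries. Its log2 difference was 0.12 with overlapping groups, and it was called higher only by the blocked fit with median-ratio scaling (0.28, limma adjusted p 0.0440) among the fits run.

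Paired by number, 25 of the 34 members (73.5%) were lower with FSS in all 3 pairs, where 47.3% of all genes tested were, and 0 members were higher in all 3 (17.1% of all genes). The 25 were 11 core and 14 cap genes. The median log2 difference of the members was -0.25, -0.16 and -0.20 in pairs 1, 2 and 3, beside -0.08, -0.07 and -0.22 for all genes. The members thus lay below the middle of all genes in pairs 1 and 2 and at it in pair 3. Core medians were -0.26, -0.18 and -0.15 and cap medians -0.24, -0.15 and -0.25 in pairs 1, 2 and 3. Both were thus below 0 in every pair, the core median being the lower of them in pairs 1 and 2 and the cap median in pair 3. All FSS libraries lay below all static ones for 8 tested members (23.5%, beside 20.4% of all genes), and all lay above for 0 members (5.1% of all genes). The 8 were Psma2, Psma3, Psma4 and Psma6 of the core and Psmd1, Psmd7, Psmd11 and Psmd12 of the cap.

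**Figure D2:**
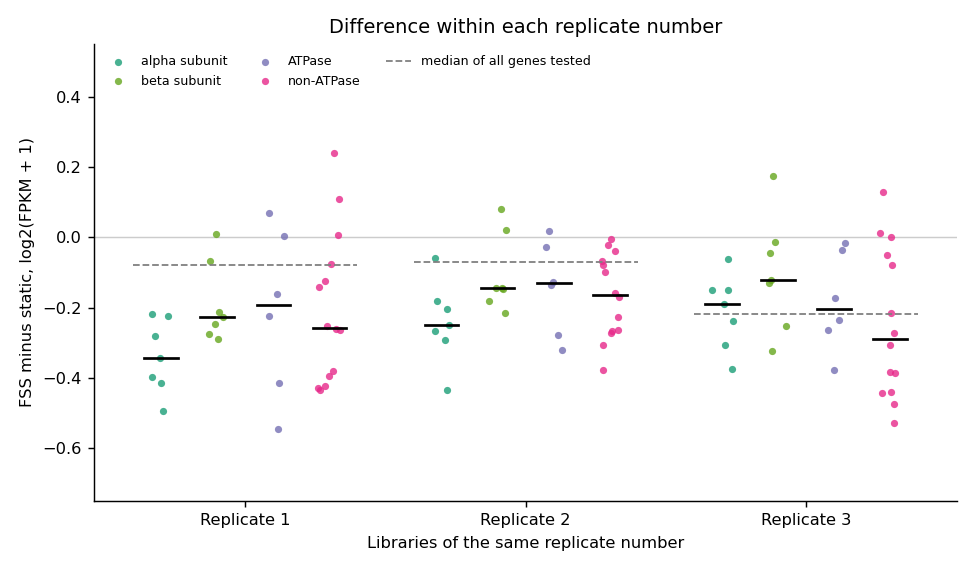
Difference of FSS minus static, log2(FPKM + 1), for each tested member in the pairs numbered 1, 2 and 3, with points coloured by alpha, beta, ATPase and non-ATPase genes, black bars at each class's median and a dashed line at the median of all genes tested. Most points lie below 0, and the dashed line is at -0.08, -0.07 and -0.22.

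By median over all members, the difference between number 3 and the other numbers was larger (0.37) than that between FSS and static (-0.21). This held for beta genes (0.47 and -0.17) and ATPases (0.36 and -0.13). It did not hold for alpha genes (0.15 and -0.25) or non-ATPase genes (0.14 and -0.21). With the group in the model, 19 members were higher and 1, Psmc6, was lower in the libraries numbered 3 than in those numbered 1 and 2 (limma, adjusted p under 0.05), which is 55.9% and 2.9% of the members. Of all genes tested 13.7% were higher and 29.3% lower. With median-ratio scaling 21 members were higher and 1 lower, beside 22.8% and 26.2% of all genes. With equal totals 14 were higher and 2 lower. This comparison was chosen after seeing the data, and it rests on both libraries numbered 3: the count of members higher was 6 without static library 3 and 0 without FSS library 3. Shares of all genes are not given here for equal totals or for a library left out. Those counts therefore cannot be set against all genes. The median log2 difference was 0.37 over the members, 0.44 over the core and 0.26 over the cap, beside -0.12 over all genes. All 7 tested beta genes were among the 19, with 2 alpha, 4 ATPase and 6 non-ATPase genes. Psmb5 had the largest difference, 0.82 (SE 0.11), and Psmc6 the lowest, -0.45. Psmc6, an ATPase, was at 31.0, 34.7 and 25.6 FPKM in static and at 32.6, 35.2 and 22.6 in FSS libraries, so number 3 was lowest in both groups. What the numbers stand for is not in the labels, and the part of culture, animal or library handling in this difference cannot be told apart.

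The size of the number 3 difference followed the GC content of the transcripts. Over the 34 members its rank correlation with the GC percentage of the longest coding GENCODE transcript was 0.81, beside 0.51 over the 10683 genes with a transcript. It was 0.79 within the core (n = 14) and 0.85 within the cap (n = 20). Within the static libraries alone it was 0.86 over the members and within the FSS libraries alone 0.75. The difference of number 2 minus number 1 also had rank correlations with GC. Within FSS libraries they were 0.44 over the members, 0.09 over the core and 0.74 over the cap, beside 0.21 over all genes. Within static libraries they were 0.04, -0.19 and 0.23, beside 0.12. These are descriptions across genes that share the same 6 libraries. Members ran from 37.0% GC (Psmc6) to 58.3% (Psmd3). In bands chosen after seeing the values, the test called 11 of the 11 members at 52% GC or more higher in number 3, 8 of the 10 between 48% and 52%, and 0 of the 13 under 48%. Of all genes in these bands it called 26.2%, 12.9% and 2.52% higher. The median differences in these bands were 0.58, 0.43 and -0.08, beside 0.15, -0.07 and -0.38 for all genes. With transcript length the rank correlation was -0.18 over the members, -0.45 within the core and 0.18 within the cap, beside -0.44 over all genes. The difference of FSS minus static had a rank correlation of -0.10 with GC over the members and -0.03 over all genes. Within the core it was 0.24 and within the cap -0.36, so the sub-complexes went opposite ways. Whether GC content has a part in the number 3 difference was not tested.

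**Figure D3:**
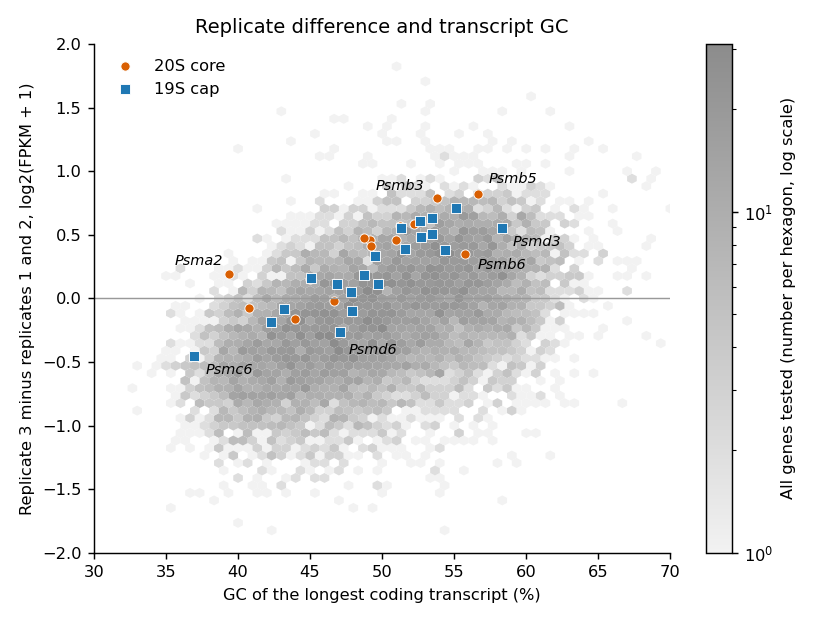
Difference of the libraries numbered 3 from those numbered 1 and 2, log2(FPKM + 1) with the group in the model, against GC percentage of the longest coding transcript, 1 point per member (circles core, squares cap), over grey hexagons shaded by the number of all genes tested, on a log colour scale. The points climb from Psmc6, at 37.0% GC and -0.45, to the GC-rich members.

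The 6 ATPases, related proteins of similar coding length, followed whole-transcript GC in the same order as the number 3 difference. From Psmc3 through Psmc4, Psmc5, Psmc1 and Psmc2 to Psmc6 the differences were 0.71, 0.51, 0.39, 0.34, 0.18 and -0.45, and the transcripts had 55.1%, 53.5%, 51.6%, 49.5%, 48.7% and 37.0% GC. Over the third bases of their codons GC was 65.4%, 68.2%, 61.8%, 55.7%, 50.7% and 36.0% in the same order. To show how unequal the base choice for one conserved piece of protein is, the 60 coding bases around the Walker A loop, the ATP-binding loop of these enzymes, are given here in that order, 5′ to 3′, with G and C in capitals.
Psmc3: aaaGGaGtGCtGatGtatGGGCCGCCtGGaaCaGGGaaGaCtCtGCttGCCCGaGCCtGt
Psmc4: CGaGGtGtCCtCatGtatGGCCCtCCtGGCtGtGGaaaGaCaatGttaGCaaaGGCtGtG
Psmc5: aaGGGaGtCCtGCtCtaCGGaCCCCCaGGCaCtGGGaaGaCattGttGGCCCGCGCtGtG
Psmc1: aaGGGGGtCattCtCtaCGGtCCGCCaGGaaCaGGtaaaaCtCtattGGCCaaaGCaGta
Psmc2: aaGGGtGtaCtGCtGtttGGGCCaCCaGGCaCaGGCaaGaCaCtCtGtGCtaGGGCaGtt
Psmc6: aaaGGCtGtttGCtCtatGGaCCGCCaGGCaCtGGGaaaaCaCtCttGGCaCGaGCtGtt
This stretch was picked after the start and the middle of the coding sequences had been looked at, and its own GC, 58.3%, 53.3%, 63.3%, 50%, 56.7% and 53.3%, does not follow the order of the differences. The relation was seen over whole transcripts, not over this stretch.

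Other genes of the proteasome pathway were followed in a list of 35, all of them tested. Without the block 1 rose, Zfand2a (2.9%, beside 0.853% of all genes), and 0 fell (0.862% of all genes). With the block 4 rose, Zfand2a, Nfe2l2, Ubqln1 and Ddi2 (11.4%, beside 7.73% of all genes), and 15 fell (42.9%, beside 25.1%). Once median-ratio scaling was added to the block, 5 rose and 6 fell (14.3% and 17.1%, beside 19.6% and 16.3% of all genes), so the share lower was then near that of all genes. Zfand2a, an arsenite-inducible protein that binds the proteasome, was at 21.2, 25.5 and 27.3 FPKM in static and at 65.7, 69.5 and 59.1 in FSS libraries, so the groups were far apart. It rose 2.63-fold, from 24.7 ± 3.11 to 64.8 ± 5.29 FPKM (n = 3 per group), a log2 difference of 1.36 ± 0.17 (SE) with a limma adjusted p of 0.0167. That call was lost without static library 1 or 2 or FSS library 1 or 2, with limma adjusted p-values of 0.123, 0.0939, 0.0949 and 0.116.

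Zfand5, a ubiquitin-binding activator of the proteasome from the same zinc-finger group, went the other way, with 85.8, 70.9 and 76.2 FPKM in static and 39.3, 46.4 and 28.0 in FSS libraries. The groups did not overlap, and the log2 difference of -1.04 had a limma adjusted p of 0.0614 without and 0.00289 with the block. Psme3, the subunit of the nuclear activator PA28-gamma, was at 41.5, 44.9 and 49.6 FPKM in static and at 26.3, 31.2 and 30.8 in FSS libraries, again without overlap (-0.61, limma adjusted p 0.110 and 0.00325). Ubqln2, a shuttle that brings tagged proteins to the cap, was at 10.6, 9.62 and 11.6 FPKM in static and at 6.05, 6.45 and 6.3 in FSS libraries, a log2 difference of -0.67 (limma adjusted p 0.0703 and 0.00343). Vcp, the segregase that extracts such proteins, was at 130.4, 137.9 and 163.7 FPKM in static and at 89.6, 104.5 and 123.8 in FSS libraries. Neither gene's groups overlapped, and the difference for Vcp was -0.44 (limma adjusted p 0.263 and 0.00611, and 0.0538 with the block after median-ratio scaling).

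The regulators of the subunit genes differed in direction. Nfe2l2, the antioxidant-response factor NRF2, was at 80.4, 82.6 and 68.1 FPKM in static and at 127.5, 127.2 and 90.5 in FSS libraries, with every FSS library above every static one. Its log2 difference was 0.56, with a limma adjusted p of 0.184 without and 0.00399 with the block. Ngly1, the enzyme that removes sugars from NFE2L1 on its way to activity, was at 11.3, 10.4 and 6.9 FPKM in static and at 7.39, 6.62 and 4.08 in FSS libraries, with overlapping groups and a difference of -0.59 (limma adjusted p 0.274 and 0.00387). Nfe2l1 itself was at 52.03, 49.9 and 52.8 FPKM in static and at 47.2, 49.7 and 41.3 in FSS libraries and passed neither fit. Ddi2, listed with these regulators, was at 24.4, 31.7 and 23.3 FPKM in static and at 37.0, 42.0 and 25.5 in FSS libraries. Its groups overlapped, with a log2 difference of 0.37 (limma adjusted p 0.458 without and 0.0384 with the block).

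**Figure D4:**
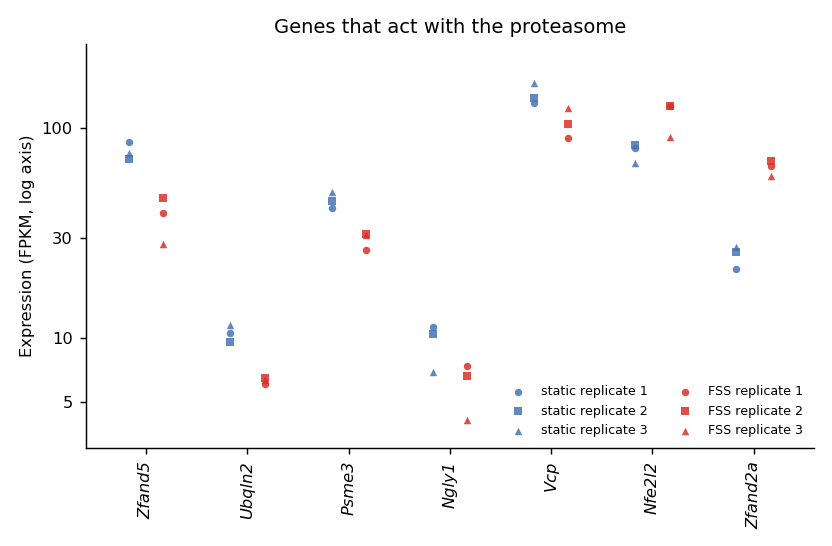
FPKM (log axis) of 7 related proteasome pathway genes in the 3 static and 3 FSS libraries, 1 point per library with a shape per replicate number. Zfand2a and Nfe2l2 have all FSS points above the static ones, and Zfand5 and Psme3 have them all below.

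The immunoproteasome subunits, which replace Psmb5, Psmb6 and Psmb7, were present at like levels. Psmb8 had 1.61 ± 0.19 times the FPKM of Psmb5 in static and 1.42 ± 0.19 times in FSS libraries. The ratio of Psmb9 to Psmb6 was 0.60 ± 0.04 and 0.47 ± 0.10, and that of Psmb10 to Psmb7 was 0.79 ± 0.12 and 0.60 ± 0.04. All 3 immunoproteasome genes fell with the block (log2 differences of -0.42, -0.37 and -0.46, limma adjusted p-values of 0.0102, 0.0311 and 0.0096), where the subunits they replace did not pass and 25.1% of all genes fell. After median-ratio scaling the blocked fit kept Psmb10 (-0.29, limma adjusted p 0.0327), while Psmb8 and Psmb9 were at -0.25 and -0.20 (0.0765 and 0.146). The difference between the 2 kinds of subunit was not tested.

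The factors encoded by Nfe2l1 and Nfe2l2 bind the antioxidant response element, so its core letters were searched in the members' promoters. RefSeq windows of GRCm38.p6, from 250 bases before to 50 after the start, were found for 29 of the 36 members. TGACNNNGC on either strand was in 5 of the 29 windows (17.2%), beside 14.0% of 27025 genes. The variant TGAGNNNGC, searched as its own pattern, was in 11 (37.9%, beside 19.8%), with Psmc6 and Psmd12 holding both forms. The heat shock letters GAANNTTC and TTCNNGAA were in 1 window each, Psmb5 and Psmd4 (3.4%, beside 9.0% and 9.6%), and CCAAT was in 12 (41.4%, beside 41.1%). The 5 TGACNNNGC matches are printed below with the match in capitals and up to 20 bases on each side, to show the letters near a catalytic subunit such as Psmb5 and near Psmd12, which fell with the block. Psmb5 lies at chr14:54618014-54618062 on the minus strand, and the others are on the plus strand, Psmb6 at chr11:70525328-70525356, Psmc6 at chr14:45329577-45329625, Psmd12 at chr11:107479278-107479309 and Psmd9 at chr5:123228139-123228187. In Psmc6 and Psmd12 the match is the reverse complement.
Psmb5: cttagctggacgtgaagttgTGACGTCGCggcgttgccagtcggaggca
Psmb6: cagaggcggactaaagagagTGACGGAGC
Psmc6: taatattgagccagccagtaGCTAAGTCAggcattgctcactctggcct
Psmd12: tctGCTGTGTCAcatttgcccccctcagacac
Psmd9: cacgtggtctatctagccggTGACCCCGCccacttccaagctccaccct
Of these 5 genes only Psmd12 was called with the block. Of the 11 with TGAGNNNGC, Psma4, Psmd1, Psmd12 and Psmd13 were called with it and the rest were not. A match is a description of letters and not a binding site.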

How the data were processed

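Total RNA of 6 libraries was sequenced from DNA nanoballs, per the labels' protocols, and grouped by sample titles. HISAT and Bowtie2 are named in the submitters' processing notes. For the quantifier, build, annotation and strand setting the answer is "not given in the sources used here". The authors deposited values called expression per the file headers, taken as FPKM by inference, in 22899 rows, of which 4828 were blank. Steps of whole reads were sought in low values over many step sizes, with a score that rises as values share a step. The best score per library was 0.149 to 0.213, beside 0.045 to 0.048 for random values at a single step size. The best of many random scores was not computed, so steps were neither shown nor excluded. No step size was taken from these scores, and no counting interval was computed. Because reads of Psme2 may be shared with its near-identical copy Psme2b, its value is uncertain.

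The 10899 genes that reached 1 FPKM in 3 or more libraries were tested. With 1 FPKM added, limma 3.58.1 in R 4.3.3 with a variance trend fitted FSS minus static, two-sided. Differences are on the log2(FPKM + 1) scale, which understates changes of low genes. Every adjusted p is from limma over all genes tested. Deviations from group means correlated at 0.79, 0.66 and 0.87 between libraries of one number and at -0.78 to 0.28 between others, so the numbers were taken to pair the samples. This pairing comes from the data, not from the labels. The fits were tested on simulated data. The alternatives tried were a filter of 5 FPKM or none, a pseudocount of 0.1, a threshold of 0.01, no variance trend, other scalings, the block, and libraries left out. In a fit without a library the filter used the libraries kept. A first version that filtered over all 6 was replaced to follow an earlier analysis of these data, and the members' counts were the same.

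The members and lists were chosen with earlier results of these data known. Values per library are given for members called in either fit (up to 6 per sub-complex), Psmb5, Psmb6, Psmb7, Psmd14, Psmd4, Psmc1 and the extremes of each sub-complex, and for the related gene called without the block and 6 others with the smallest blocked p. Psmc6, Nfe2l1, Psma8, Psmb11 and other genes named outside this rule were chosen after their values were seen. GC content and length are of the longest coding GENCODE transcript.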

Additional observations from a re-analysis of the deposited data

How the results depend on the processing

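The replicate block changed most: of the constitutive proteasome genes called lower (0 without it) there were 9 with it, 1 with it and median-ratio scaling (which also called 1 higher, a cap gene), 7 with it and equal totals, and 13 with it and without both libraries numbered 3. For the core these were 2 with the block, 1 with the block and equal totals and 6 without number 3, and for the cap 7, 1 with median-ratio scaling, 6 with equal totals and 7 without number 3. Of the related genes, 1 higher and 0 lower became 4 and 15 with the block, 5 and 6 with median-ratio scaling too, 4 and 12 with equal totals too, and 4 and 16 with the block and without number 3. Without number 3 and without the block, 2 were higher and 2 lower, at a threshold of 0.01 0 were higher, and leaving out 1 library gave 0 to 1 higher and 0 to 1 lower. The counts of members higher and lower in number 3 were 0 to 18 and 0 to 1 with 1 library left out, and 14 and 2 with equal totals, without a share of all genes to set beside them. With no filter 15 were higher. With or without the block, the core median was -0.0543 with median-ratio scaling and -0.156 with equal totals, and the cap median was 0.00812 and -0.0925. With 1 library left out they ran from -0.341 to -0.0675 and from -0.342 to -0.0798, both ends being number 3 libraries, and cap minus core, 0.0635 with all libraries, ran from -0.0123 to 0.0119. Signs turned, with or without the block, for Psmb1 (0.166 with median-ratio scaling, 0.0648 with equal totals, 0.00557 without number 3), Psmb6 (0.163, 0.0607 and 0.0148), Psmb7 (0.0945 with median-ratio scaling) and Psmd4 (0.0995). With 1 library left out, ranges that crossed 0 were -0.135 to 0.14 for Psmb1, -0.498 to 0.048 for Psmb5, -0.111 to 0.121 for Psmb6, -0.292 to 0.0954 for Psmb7, -0.0348 to 0.0873 for Psmd14 and -0.198 to 0.0584 for Psmd4. The cause was not tested. With 3 libraries a group and no depths, small differences cannot be told from library handling.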
